A study of Mus musculus with 10 samples.

Results

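The genes described here encode the factors that maintain, copy, transcribe and translate mitochondrial DNA, measured in interscapular brown adipose tissue (iBAT) of mice lacking cardiolipin synthase in adipocytes. They were chosen by gene symbol from textbook membership in 4 roles, with earlier results of these data known. All 38 were found among the 15075 genes of the expression table. The roles are mtDNA maintenance (8 genes), transcription (4), RNA processing (16) and translation factors (10). The study compared polyadenylated RNA of iBAT from 5 Control and 5 AdCKO mice, with 1 library per mouse, and asked how loss of cardiolipin in adipocytes alters the tissue's gene expression. All mice were C57BL/6, 20 weeks old and kept at room temperature. AdCKO mice carried a floxed exon 4 of Crls1, the gene for cardiolipin synthase, together with Adipoq-Cre, which is active in the adipocytes of every fat depot and not in brown fat alone. Control mice, named wild-type in the sample labels, carried the same floxed allele without Cre. Values were normalized reads per kb of counted exon, a level that can be compared between genes.

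Mitochondria hold their own small circular genome, which encodes core subunits of the respiratory chain together with the ribosomal and transfer RNAs needed to make them. Every protein that replicates this genome, transcribes it, cuts and modifies its RNA and translates its messages is encoded in the nucleus and imported. Brown adipocytes are packed with mitochondria, and their heat production rests on the respiratory chain that this machinery helps to build. The transcripts of the mitochondrial genome itself were not analysed here.

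The promoters of many of these genes are known for binding sites of nuclear respiratory factor 1 (NRF1) and GA-binding protein (GABP, also called NRF2). The sequences below run from 160 bases before to 30 bases after the annotated start, 5′ to 3′ in the direction of transcription, from RefSeq on GRCm38.p6, which is a later build than the mm9 of the expression table. Capitals mark the GABP core CCGGAAG and the NRF1 core GCGCATG, each in either orientation. Tfam, Polrmt and Tfb2m are shown because they form the transcription machinery, Tufm because its level fell by nearly as much as that of Tfb2m, and Slirp because its window held 3 GABP cores, the most of any member.
Tfam, chr10:71238015-71238204, minus strand: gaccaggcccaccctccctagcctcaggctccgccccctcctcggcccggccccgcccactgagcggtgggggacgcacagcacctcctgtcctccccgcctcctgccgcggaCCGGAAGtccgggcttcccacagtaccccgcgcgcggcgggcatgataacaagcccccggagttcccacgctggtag
Polrmt, chr10:79746552-79746741, minus strand: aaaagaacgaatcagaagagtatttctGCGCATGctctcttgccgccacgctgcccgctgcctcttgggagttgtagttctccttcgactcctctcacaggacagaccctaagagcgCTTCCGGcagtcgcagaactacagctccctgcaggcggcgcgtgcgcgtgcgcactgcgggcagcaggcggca
Tfb2m, chr1:179546247-179546436, minus strand: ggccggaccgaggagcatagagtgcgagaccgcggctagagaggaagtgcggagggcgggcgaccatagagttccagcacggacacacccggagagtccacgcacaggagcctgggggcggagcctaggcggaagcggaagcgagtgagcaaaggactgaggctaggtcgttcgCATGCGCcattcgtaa
Tufm, chr7:126487195-126487384, plus strand: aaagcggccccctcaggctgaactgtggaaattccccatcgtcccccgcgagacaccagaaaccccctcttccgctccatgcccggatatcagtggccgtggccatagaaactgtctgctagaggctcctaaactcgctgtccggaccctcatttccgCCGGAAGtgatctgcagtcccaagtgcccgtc
Slirp, chr12:87443736-87443925, plus strand: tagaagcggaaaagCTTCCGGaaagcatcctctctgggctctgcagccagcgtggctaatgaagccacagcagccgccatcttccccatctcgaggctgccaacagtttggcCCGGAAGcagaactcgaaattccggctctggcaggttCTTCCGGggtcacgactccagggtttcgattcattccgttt
A GABP core began 47 bases before the start of Tfam, 43 bases before that of Polrmt and 2 bases before that of Tufm, and Polrmt had an NRF1 core at 133 bases before. Tfb2m carried an NRF1 core that began at base 15 of the transcript and no GABP core. RefSeq windows of 300 bases (250 before and 50 after the start) were found for 34 of the 38 members, as 35 windows. The GABP core lay in 14 of the 35 windows (40.0%), against 8.86% of all 32841 windows and 14.9% of the 14415 windows of genes in the expression table. The NRF1 core lay in 4 (11.4%, against 3.91% and 6.13%). AAGGTCA, the core bound by estrogen-related receptors, lay in 3 (8.57%, against 4.72% and 3.48%), and TGATGCA, a core of ATF4 sites, in 1 (2.86%, against 3.15% and 2.07%). Both strands were searched, and a window with more than 1 motif was counted under each. A match in letters describes the window and does not show that a factor was bound.

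Crls1 was measured at 1291, 927, 813, 1101 and 1170 normalized reads per kb in Control 1 to 5 and at 193, 195, 249, 208 and 242 in AdCKO 1 to 5, a log2 fold change of -2.27 (limma: SE 0.13, adjusted p = 3.53e-08). The groups did not overlap, and the remaining level was 20.5% of Control. Reads multiplied back by exon length summed to between 7615403 and 8171138 per Control library and to between 5419800 and 5843024 per AdCKO library, which is 71.6% of Control (p = 0.0079 in an exact two-sided permutation test, which is as small as 5 against 5 allow). How libraries are scaled therefore changes many signs below. Brown adipocyte markers were abundant in every library. Their levels summed to 210901 to 237649 in Control and 130639 to 156086 in AdCKO, and 6 of 8 were lower. Fabp4, a general adipocyte gene, had the largest mean in that sum (147241 in Control, 108235 in AdCKO) and was not called. Ucp1, Cidea and Cpt1b were lower, at log2 fold changes of -1.42, -1.63 and -1.32. Ppara, at -0.54, was not called. The general adipocyte genes Adipoq, Plin1, Pparg and Fabp4 had a median log2 fold change of -0.49. All 10 macrophage markers were higher (sum 728 to 2346 against 8481 to 11579), as were all 7 fibroblast and preadipocyte markers (1089 to 1429 against 4586 to 6660). Among the macrophage markers Itgam (means 5.93 in Control and 55.1 in AdCKO) could be tested only through AdCKO and is no support for a direction. Of 6 endothelial markers 1 was higher (1636 to 2049 against 1724 to 2383). Of the 6 lymphocyte markers with enough signal 1 was higher, Cd4, with means of 7.89 in Control and 23.6 in AdCKO. It reached the mean of 10 needed for the test only in AdCKO and is no support for a direction. Cd2 alone of the 6 reached 10 in Control. All 10 lymphocyte markers summed to 49.8 to 84.1 in Control, 315 in AdCKO 1 and 62.8 to 99.6 in the other AdCKO mice. Skeletal muscle markers summed to 463 to 500 in Control, to 6962 to 25890 in AdCKO 1, 2 and 4 and to 289 to 296 in AdCKO 3 and 5, and 1 of 10 was called. Myl1 had by far the largest Control mean in that sum (366). The marker called higher was Acta1 (Control mean 47.4), with every AdCKO mouse above every Control mouse. No marker of any list was at 0. The part of these cell types in the results below was not tested. In whole tissue, fewer brown adipocytes and less of a transcript per adipocyte cannot be told apart.

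Under the authors' normalization 29 of the 38 members were lower in AdCKO iBAT, none was higher and 9 did not pass the test, whereas with every library set to the same total 9 were lower (9.77% of all tested genes) and 5 higher, a smaller share than the 60.6% of all tested genes. Called means an adjusted p under 0.01 in limma over 11244 tested genes, of which 28.0% were called lower and 25.6% higher under the authors' normalization. Of the 3 members with a positive change, Pus1, Trnt1 and Fastkd3, only Pus1 had an unadjusted p under 0.05 in limma, the test used across genes. The members' log2 fold changes ran from -1.28 for Tfb2m to 0.24 for Pus1, with a median of -0.45, beside a median of -0.01 over all tested genes. In 25 members every AdCKO value lay under every Control value, which was so for 26.4% of all tested genes, and in none did every AdCKO value lie above (24.5% of all tested genes). The share of members lower was thus above the background, and translation factors had the lowest median of the 4 roles, -0.65. All 38 passed the filter on low values, and each had a mean of at least 10 in both groups.

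**Figure D1:**
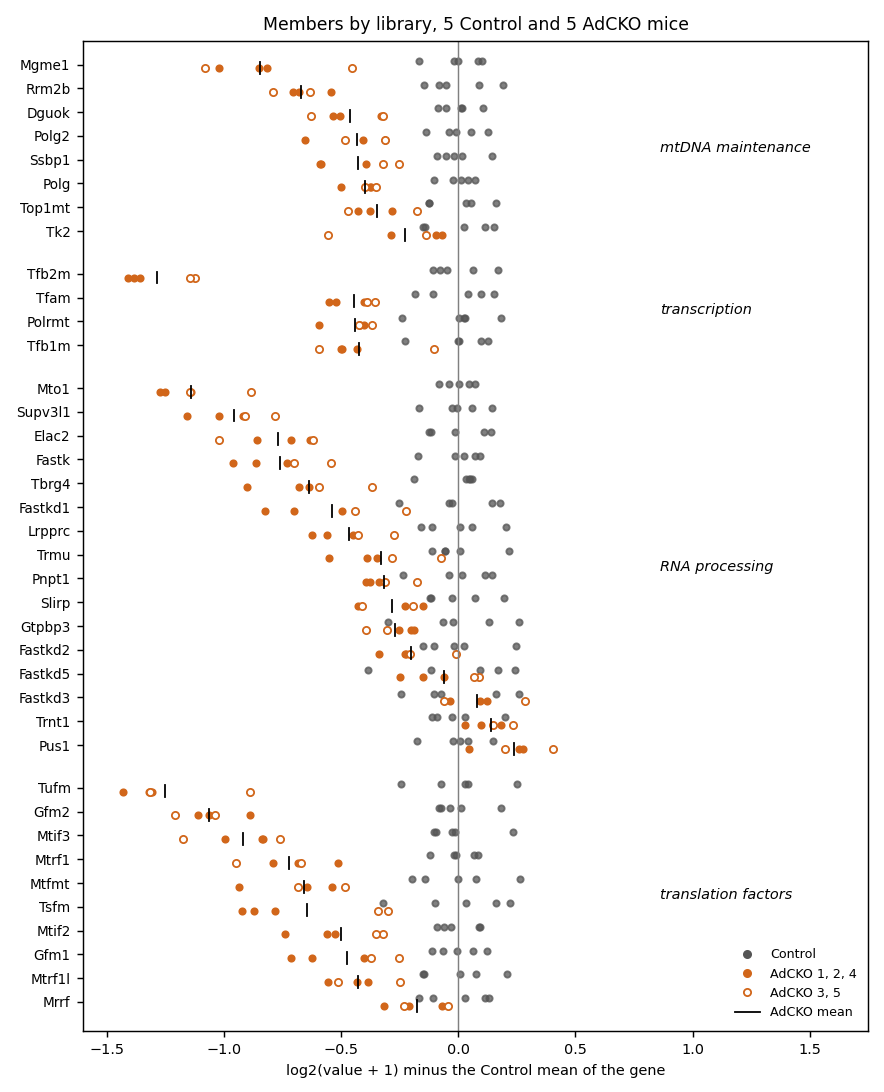
Each row is 1 member, and each point is 1 mouse, as log2(value + 1) minus the gene's Control mean under the authors' normalization. Grey points are Control, filled orange points AdCKO 1, 2 and 4, open orange points AdCKO 3 and 5, and black bars the AdCKO mean, which lies left of 0 for 35 of 38 members here but for 16 of 38 when all libraries have the same total.

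Taken mouse by mouse, the median of the 38 members relative to their Control means was 0.04, 0.07, -0.10, -0.05 and 0.02 in Control 1 to 5 and -0.55, -0.44, -0.39, -0.54 and -0.36 in AdCKO 1 to 5. The same median over the 4 general adipocyte genes was -0.58, -0.46, -0.67, -0.60 and -0.40 in the AdCKO mice, so that all 5 AdCKO mice lay below all Control mice by both measures. AdCKO 2 had the highest skeletal muscle sum, 25890. Its median lay above those of AdCKO 1 and 4, with sums of 6962 and 9969. AdCKO 3 and 5, whose muscle sum (in Control mostly Myl1) was under the Control range, had the highest medians. Acta1 was nevertheless above every Control mouse in both. The part of muscle transcripts in these medians was not tested. With AdCKO 3 and 5 alone against the 5 Control mice, 15 members were lower (19.7% of all tested genes) and none was higher, and the members' median was -0.36.

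Of the 8 genes of mtDNA maintenance, 7 were lower under the authors' normalization with a median of -0.43, while at equal library totals only Mgme1 was lower and Polg, Polg2, Ssbp1, Top1mt, Dguok and Tk2 had values above 0 that did not pass the test. The share lower among all tested genes was 28.0% under the authors' normalization and 9.77% at equal totals. Rrm2b, the small subunit of ribonucleotide reductase used by resting cells to make deoxynucleotides, had levels of 66.7, 55.0, 56.3, 52.6 and 62.1 in Control and 35.4, 36.1, 33.3, 39.7 and 37.3 in AdCKO. The highest AdCKO mouse lay well under the lowest Control mouse, and the log2 fold change was -0.67 (limma: SE 0.08, adjusted p = 1.44e-05). At equal totals it was -0.20 and was no longer called. Mgme1, an exonuclease that trims single-stranded ends of mtDNA, had levels of 76.5, 91.1, 84.8, 85.9 and 92.1 in Control and 41.8, 48.4, 40.1, 47.2 and 62.5 in AdCKO. AdCKO 5 stood nearest to Control without reaching it, and the log2 fold change was -0.84 (limma: SE 0.11, adjusted p = 2.86e-05), or -0.37 at equal totals (limma adjusted p = 0.0040). Mgme1 lies at chr2:144096640-144106963 and Rrm2b at chr15:37853708-37890810 of mm9.

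The other members of this role changed less. Polg, the catalytic subunit of the mitochondrial DNA polymerase, was lower at -0.40, and its accessory subunit Polg2, the least abundant member with a Control mean of 21.8, at -0.43. Ssbp1, which coats single-stranded mtDNA, had a log2 fold change of -0.43 and Top1mt, the mitochondrial topoisomerase, one of -0.35. Of the kinases that salvage deoxynucleosides inside mitochondria, Dguok (purines) was lower at -0.46. Tk2 (pyrimidines) had a value of -0.23 and was not called (limma adjusted p = 0.069), and its levels, 75.1 to 92.9 in Control and 56.5 to 79.5 in AdCKO, overlapped.

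All 4 transcription genes were lower under the authors' normalization, with a median of -0.44, and at equal totals Tfb2m alone remained lower while Tfam, Tfb1m and Polrmt lay between 0.03 and 0.05 and were not called. Beside these counts, 28.0% of all tested genes were lower under the authors' normalization and 9.77% at equal totals. Tfb2m, which melts the promoter for the mitochondrial RNA polymerase, had levels of 369.3, 343.5, 304.4, 310.6 and 317.9 in Control and 125.1, 127.4, 150.0, 123.0 and 148.0 in AdCKO (means 329.1 ± 26.9 and 134.7 ± 13.2, SD, n = 5). The groups were far apart, and the fold change of -1.28 (limma: SE 0.08, adjusted p = 9.03e-08) was the largest of the 38, leaving 40.9% of the Control level. At equal totals it was -0.80. Tfam, which packages mtDNA and bends its promoters, had levels of 111.6, 115.8, 95.3, 100.3 and 120.6 in Control and 73.5, 81.7, 84.5, 75.2 and 82.4 in AdCKO. Its groups were close but did not overlap, with a log2 fold change of -0.44 (limma: SE 0.08, adjusted p = 0.000319) that became 0.03 at equal totals. Polrmt, the RNA polymerase, had a value of -0.44 and no overlap. Tfb1m, a relative of Tfb2m that methylates the small ribosomal RNA, had a value of -0.42, and its AdCKO 3 level of 68.3 lay above the lowest Control level of 62.6. Tfb2m lies at chr1:181458187-181476398 and Tfam at chr10:70688225-70700792 of mm9, both on the minus strand.

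Among the 16 RNA processing genes the changes were the most spread, from -1.14 to 0.24, with 9 lower and none higher under the authors' normalization but 4 lower (Mto1, Supv3l1, Elac2 and Fastk) and 4 higher (Pus1, Trnt1, Fastkd3 and Fastkd5) at equal totals. The shares of all tested genes were 28.0% lower and 25.6% higher, or 9.77% and 60.6% at equal totals. The 4 higher were thus a smaller share than the background. Mto1, which with Gtpbp3 adds a taurine-derived group to the wobble base of mitochondrial transfer RNAs, had levels of 182.4, 191.7, 177.5, 171.9 and 188.3 in Control and 76.0, 74.9, 81.8, 82.1 and 98.3 in AdCKO (means 182.4 ± 8.0 and 82.6 ± 9.3, SD, n = 5). The groups were far apart, at a log2 fold change of -1.14 (limma: SE 0.08, adjusted p = 1.61e-07) and -0.66 at equal totals. Supv3l1, the helicase of the complex that degrades mitochondrial RNA, had levels of 258.9, 247.8, 221.4, 274.9 and 244.1 in Control and 131.0, 122.1, 132.1, 111.0 and 144.4 in AdCKO. It too showed no overlap, with a value of -0.96 (limma: SE 0.08, adjusted p = 8.51e-07) and -0.48 at equal totals. Mto1 lies at chr9:78296017-78321959 and Supv3l1 at chr10:61892126-61912441 of mm9.

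Of the remaining transfer RNA enzymes, Elac2 and Trmu were lower under the authors' normalization and Gtpbp3, Pus1 and Trnt1 did not pass the test. Elac2, which cuts the 3′ end of transfer RNA precursors, was lower at -0.77 and at -0.29 at equal totals. Trmu, which adds sulfur to the wobble base, had a value of -0.33 and the weakest call of the 29 (limma adjusted p = 0.00825). Leaving out 1 library at a time gave limma adjusted p from 0.00185 to 0.0219, and the call remained without Control 3 or AdCKO 5 and was lost without any of the others. Gtpbp3 had a value of -0.27 and was not called. Pus1, a pseudouridine synthase, had levels of 112.2, 114.6, 100.6, 126.2 and 117.2 in Control and 136.4, 138.1, 131.0, 117.7 and 151.0 in AdCKO. Only AdCKO 4 fell within the Control range, and the log2 fold change of 0.24 (limma: SE 0.08, adjusted p = 0.0206) did not pass, whereas at equal totals it was 0.72 and passed. Annotated exons of other genes cover 30.1% of the exon bases of Pus1, and the strand setting of the counting is not given. Trnt1, which adds the terminal CCA, had levels of 87.5, 77.7, 74.6, 71.5 and 70.3 in Control and 81.4, 77.7, 84.4, 86.4 and 89.7 in AdCKO. They overlapped (log2 fold change 0.14, or 0.61 at equal totals, where it was called).

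Lrpprc and Slirp form the complex that protects mitochondrial messenger RNAs, with Control means of 292.7 and 326.0. Lrpprc was lower at -0.47, a value of 0.012 at equal totals. Slirp had a value of -0.28, and its adjusted p of 0.0102 in limma just missed the threshold although its groups did not overlap (298.5 to 371.8 against 241.3 to 292.9). Pnpt1, the exoribonuclease that works with Supv3l1, was lower at -0.32 (limma adjusted p = 0.00427). That call was lost without Control 1 or 5 or AdCKO 1, 2 or 4, and limma adjusted p ran from 0.000769 to 0.0131 with 1 library left out.

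The FASTK family of RNA-binding proteins, which act on the processing and stability of single mitochondrial RNAs, was split, and at equal totals Fastk alone was lower and Fastkd3 and Fastkd5 were higher. At equal totals 9.77% of all tested genes were lower and 60.6% higher. Fastk had the highest level of all members (Control mean 1219, AdCKO mean 721) and was lower at -0.76, with 18.2% of its exon bases under exons of other genes. Tbrg4 (also named Fastkd4) was lower at -0.64 and Fastkd1 at -0.54, the latter with overlapping groups. Fastkd2, needed for the large mitochondrial ribosomal subunit, had a value of -0.20, Fastkd3 one of 0.08 and Fastkd5 one of -0.06, and none of them was called. Fastkd3 levels were 28.2, 23.8, 23.3, 21.0 and 30.3 in Control and 27.5, 24.5, 24.0, 26.8 and 30.8 in AdCKO. Fastkd5 levels were 51.8, 54.6, 36.9, 44.6 and 57.5 in Control and 43.6, 40.7, 51.6, 46.5 and 50.9 in AdCKO. The groups overlapped for both, and at equal totals both were called higher, at 0.54 and 0.41. Exons of Ubox5 are annotated over 65.2% of the exon bases of Fastkd5, so its value is uncertain.

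Of the 10 translation factors 9 were lower under the authors' normalization, and at equal totals Gfm2, Tufm and Mtif3 were lower while Mrrf was higher. Among all tested genes 28.0% were lower under the authors' normalization, and at equal totals 9.77% were lower and 60.6% higher. Tufm, the elongation factor that brings charged transfer RNAs to the ribosome, was the second most abundant member, at 828.8, 1170.0, 933.1, 1011.0 and 1001.2 in Control and 392.8, 397.2, 394.4, 364.5 and 530.8 in AdCKO (means 988.8 ± 124.7 and 415.9 ± 65.5, SD, n = 5). AdCKO 5 stood above the other AdCKO mice but under every Control mouse, and the log2 fold change was -1.25 (limma: SE 0.11, adjusted p = 1.31e-06), or -0.77 at equal totals. Gfm2, a GTPase that splits ribosomes for recycling, had levels of 147.5, 171.6, 142.8, 143.5 and 152.4 in Control and 71.7, 81.1, 64.9, 69.6 and 73.0 in AdCKO. The groups were far apart, at a value of -1.06 (limma: SE 0.08, adjusted p = 2.18e-07) and -0.59 at equal totals. Gfm2 lies at chr13:97907892-97951151 and Tufm at chr7:133630869-133634245 of mm9.

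**Figure D2:**
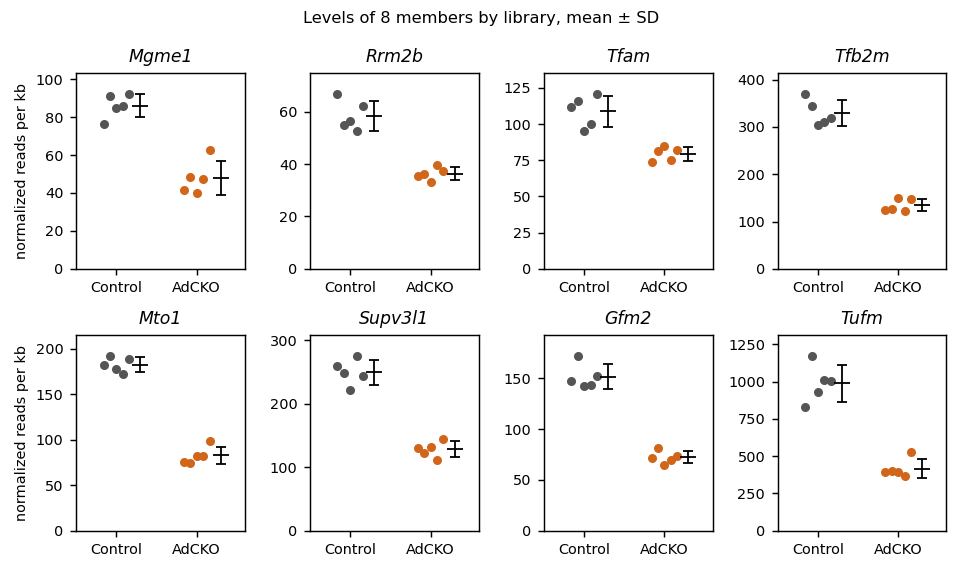
Levels in normalized reads per kb (linear axes from 0) of 8 members, 2 from each role, in 5 Control mice (grey) and 5 AdCKO mice (orange), with the mean and SD beside the points. No panel has an AdCKO mouse above a Control mouse under the authors' normalization, while at equal library totals Tfam turned to a value just above 0 and Rrm2b was not called.

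For initiation, Mtif3, a small-subunit initiation factor, was lower at -0.92 (79.9 to 101.3 against 37.6 to 50.3), with 29.4% of its exon bases under exons of Gtf3a. Mtfmt, which formylates the initiator methionine, was lower at -0.66 and Mtif2, the GTPase that positions the initiator transfer RNA, at -0.50. For elongation, Tsfm, which recharges the Tufm protein with GTP, was lower at -0.64 with overlapping groups (244.6 to 355.8 against 160.9 to 247.8). Its values in AdCKO 3 and 5, 247.8 and 240.7, stood apart from 160.9 to 177.2 in AdCKO 1, 2 and 4, and with those 2 AdCKO mice alone it was not called (-0.32, limma adjusted p = 0.0745). Gfm1, the translocase, had a Control mean of 651.2 and a value of -0.47. For termination, the release factors Mtrf1 and Mtrf1l were lower at -0.72 and -0.43. Mrrf, the ribosome recycling factor that works with Gfm2, had a value of -0.17 that was not called, and 0.30 at equal totals, where it was called higher.

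The dependence on scaling was the same for members and background. Setting the same total in every library moved the median of all tested genes from -0.01 to 0.46 and that of the members from -0.45 to 0.02, so that relative to all genes the members' median was -0.44 in both and 35 of 38 members lay under the all-gene median. The 9 members then lower were Elac2, Fastk, Gfm2, Mgme1, Mtif3, Mto1, Supv3l1, Tfb2m and Tufm, and the 5 higher were Pus1, Trnt1, Fastkd3, Fastkd5 and Mrrf. Scaling each library to Adipoq, Plin1, Pparg and Fabp4, which sets a general adipocyte level equal, left 7 lower (8.72% of all tested genes) and the same 5 higher (61.2%). Elac2 and Fastk were the members lost. The other brown adipocyte markers were not used for this scale. Under the authors' normalization Ucp1, Cidea and Cpt1b were at -1.42, -1.63 and -1.32, each below every member, and Ppara at -0.54. Quantile normalization called 29 lower (31.1% of all tested genes), with Gtpbp3 gained at -0.40 and Gfm1 lost at -0.28 (limma adjusted p = 0.0143), and 1 higher, Pus1 (22.5%). Gfm2, Mgme1, Mtif3, Mto1, Supv3l1, Tfb2m and Tufm were lower under the authors' normalization, at equal totals, relative to the adipocyte genes, and with AdCKO 3 and 5 alone.

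**Figure D3:**
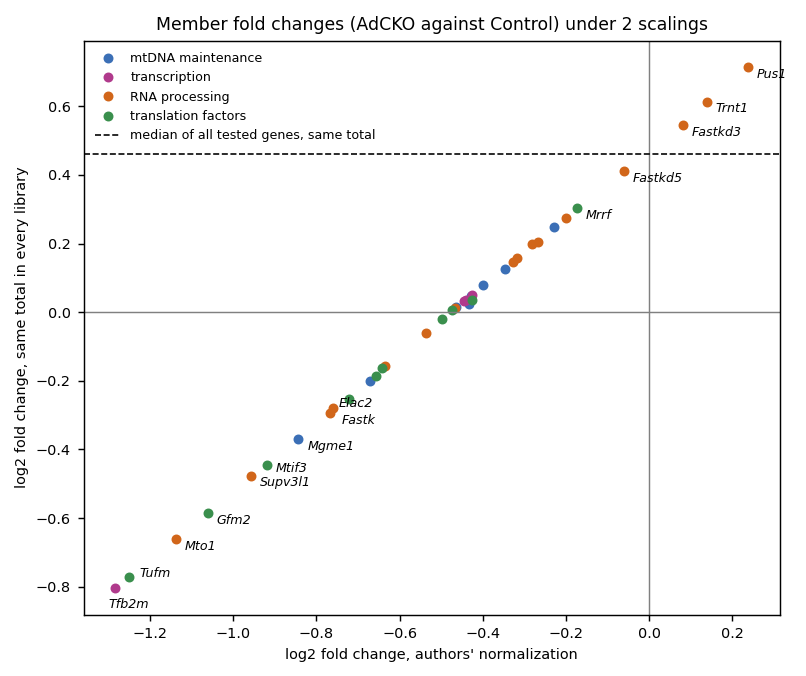
Log2 fold change (AdCKO against Control) of each member under the authors' normalization (horizontal) and with the same total in every library (vertical), coloured by role, with the dashed line at 0.46, the median of all tested genes under the vertical scaling. Points left of 0 and above the horizontal line at 0, 19 of 38, changed sign between the scalings, and the named points passed the limma test at equal totals.

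The scale of a library cancels in the ratio of 2 of its genes, apart from the pseudocount. The ratio was taken as log2((a + 1)/(b + 1)) for 8 pairs of partners or relatives, where equal totals or scaling to adipocyte genes moved the difference between groups by at most 0.021 (Polg/Polg2), and compared by an exact two-sided permutation test, with Benjamini-Hochberg adjustment over the 8 pairs. In 5 pairs the ratio changed without overlap of the groups, each at exact p = 0.0079, the smallest 5 against 5 allow (adjusted p = 0.0127, all 5 AdCKO mice on one side of all 5 Control mice). The pairs were chosen with earlier results of these data known, so these p-values describe the pairs and are no independent support. How often ratios of other gene pairs change in this way was not counted. As single genes, 26.4% of all tested genes lay wholly lower in AdCKO and 24.5% wholly higher. The Mto1/Gtpbp3 ratio was 4.22, 3.01, 3.05, 3.28 and 3.71 in Control and 1.64, 1.63, 2.03, 1.85 and 2.29 in AdCKO, a difference of -0.87 on the log2 scale. The Tfb1m/Tfb2m ratio was 0.215, 0.236, 0.208, 0.240 and 0.234 in Control and 0.417, 0.430, 0.459, 0.426 and 0.331 in AdCKO, a difference of 0.86. Mto1 relative to Gtpbp3, and Tfb2m relative to Tfb1m, was thus lower in every AdCKO mouse than in any Control mouse.
The Pnpt1/Supv3l1 ratio lay between 0.329 and 0.413 in Control mice and between 0.518 and 0.643 in AdCKO mice (log2 difference 0.64). For Tufm/Tsfm the Control range was 2.81 to 3.42 and the AdCKO range 1.59 to 2.35 (-0.61), and for Gfm1/Gfm2 the ranges were 4.11 to 4.43 and 5.62 to 7.62 (0.59). AdCKO 3 had both the lowest Tufm/Tsfm and the highest Gfm1/Gfm2 ratio. The other 3 pairs did not pass and overlapped. The difference was -0.30 for Mtrf1/Mtrf1l (exact permutation p = 0.040, adjusted p = 0.053), -0.19 for Lrpprc/Slirp (exact permutation p = 0.183, adjusted p = 0.209) and 0.03 for Polg/Polg2 (exact permutation p = 0.722, adjusted p = 0.722). Mtrf1/Mtrf1l passed once AdCKO 2, the highest of its group, was left out (-0.38, exact permutation test, adjusted p = 0.0106), and with a pseudocount of 10.

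**Figure D4:**
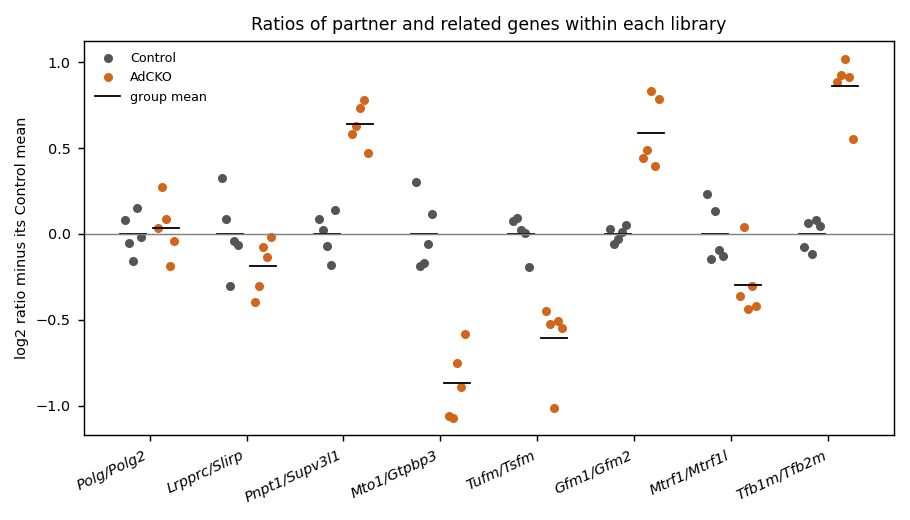
Log2 ratio of 2 members in each library minus the Control mean of that ratio, for 8 pairs, in 5 Control mice (grey) and 5 AdCKO mice (orange), with group means as bars. The AdCKO points lie wholly above or below the Control points for Pnpt1/Supv3l1, Mto1/Gtpbp3, Tufm/Tsfm, Gfm1/Gfm2 and Tfb1m/Tfb2m, and the 3 other pairs overlap.

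Of 68 further genes of mitochondrial DNA replication, transcription, RNA modification and translation, 66 were in the table and 63 had enough signal to test. Under the authors' normalization 36 were lower and 5 higher (median -0.40, with 28.0% and 25.6% of all tested genes called). At equal totals 19 were lower and 20 higher, beside 9.77% and 60.6% of all tested genes. Both counts of higher genes include Dna2, which could be tested only because its mean reached 10 in AdCKO and is no support for a direction. The 3 lower genes with the smallest p were Hsd17b10, a subunit of the mitochondrial enzyme that cuts the 5′ end of transfer RNAs, Taco1, a translational activator of a cytochrome c oxidase subunit, and Ftsj2 (now Mrm2), a ribosomal RNA methyltransferase. Hsd17b10 had levels of 872 to 1031 in Control and 391 to 440 in AdCKO, a log2 fold change of -1.21 (limma: SE 0.06, adjusted p = 2.75e-08). Taco1 and Ftsj2 were at -1.03 and -1.06, and at equal totals the 3 were still lower at -0.73, -0.55 and -0.59. Exons of another gene are annotated over 17.7% of the exon bases of Taco1.
In the other direction stood Mterf4, a factor in assembly of the mitochondrial ribosome, Dna2, a helicase and nuclease of both nucleus and mitochondria, and Qtrt1, which exchanges guanine for queuine in transfer RNA. Mterf4 had levels of 75.4 to 91.2 in Control and 132 to 178 in AdCKO (limma: log2 fold change 0.97, SE 0.09, adjusted p = 2.07e-06). Dna2 was low, at 5.19 to 5.97 in Control and 8.60 to 11.6 in AdCKO (0.77). Qtrt1 was at 0.61. Of the 17 mitochondrial aminoacyl-tRNA synthetases, which charge the transfer RNAs, 13 were lower and none higher, and the median was -0.54 (8 lower and 2 higher at equal totals). Mitochondrial ribosomal proteins had a median of -0.55, and 62 of 78 genes were lower and 1 higher (23 lower and 8 higher at equal totals). Beside both lists stand 28.0% lower and 25.6% higher of all tested genes, or 9.77% and 60.6% at equal totals.

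The promoter motifs were set beside the fold changes. The 14 members with a GABP core had a median log2 fold change of -0.44 under the authors' normalization, and the 20 members with a window and no such core one of -0.50. The 4 members with an NRF1 core, Lrpprc, Mtfmt, Polrmt and Tfb2m, had a median of -0.56, beside -0.44 for the 30 without. Of the 7 genes lower under every scaling and without AdCKO 1, 2 and 4, Tufm was the one with a GABP core and Tfb2m the one with an NRF1 core, while Gfm2, Mgme1, Mto1 and Supv3l1 had neither and no window was matched for Mtif3.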

How the data were processed

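RNA of iBAT from 5 Control and 5 AdCKO mice was analysed, with groups and replicate numbers taken from the sample labels. The authors isolated polyadenylated RNA (TruSeq 2), mapped reads to mm9 with STAR, made tag directories with HOMER, quantified exons by iRNA-seq and scaled the libraries with DESeq2, and versions are not given in the sources used here. The table the authors deposited gives a signal, normalized reads per kb, for 15075 genes with 1 RefSeq transcript each. Their transformation is not named, so how far it shrinks differences is unknown. No value was 0. The authors' fold changes, adjusted p-values, group means and lists of called genes were not used.

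The values were used as deposited. After adding a pseudocount of 1 and taking log2, 11244 genes whose mean reached 10 in either group entered limma 3.58.1 (R 4.3.3), a two-sided test with an intensity trend, Benjamini-Hochberg adjustment over all of them and a threshold of 0.01. On the log2(value + 1) scale, differences of weakly expressed genes come out too small. The study's test on counts could not be run on these values. The test was checked on simulated data. Gene pairs and library totals were compared by exact permutation over libraries, at 0.05 for the pairs. Sequencing depth before normalization is unknown and counting error cannot be stated. The p-values rest on the spread between libraries, 1 per mouse, which does not separate mice from library and counting variation. Promoters were matched by gene symbol. Exon sharing came from an annotation on mm9. Mgme1, Slirp and Mterf4 were not found in it by symbol, so their exon sharing is unknown.

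The members, lists and pairs were chosen with earlier results of these data known. Every member is named. Given in full are the 2 called members of each role with the smallest p, and some whose call or direction depends on scaling. Of other pathway genes, the 3 with the smallest p in each direction are named. Alternatives were pseudocounts of 0.1 and 10, other filters, equal totals, quantile normalization, limma without a trend, a robust trend, array weights, a replicate block, each library left out, and an adjusted p of 0.05. Leaving out AdCKO 1, 2 and 4 and scaling to 4 adipocyte genes were added after seeing the data.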

Additional observations from a re-analysis of the deposited data

Results flagged for a closer look

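In each group of 5 mice the lowest and highest values of every member, every pair ratio, Crls1 and the library total were checked for a gap to the nearest mouse exceeding 0.71 of the group's range. This picked out 6 of 96 groups, where chance gives about 1 in 20. Polrmt was lowest in AdCKO 4, at 84.5, with the other AdCKO mice from 95.2 to 99.0. Tbrg4 was lowest in Control 3, at 327.6, against 382.0 to 388.6 in the other Control mice. Mtif3 was highest in Control 2, at 101.3, against 79.9 to 85.2. Tufm was highest in AdCKO 5, at 530.8, against 364.5 to 397.2. The log2 ratio Tufm/Tsfm was lowest in AdCKO 3, at 0.67, against 1.14 to 1.24. The log2 ratio Mtrf1/Mtrf1l was highest in AdCKO 2, at 0.73, against 0.25 to 0.39.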

How the results depend on the processing

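With the same total in every library, 9 members were lower and 5 higher, with 1098 and 6811 of all tested genes. Scaled to 4 adipocyte genes, 7 were lower and 5 higher, with 981 and 6886 of all tested genes. Without AdCKO 1, 2 and 4, 15 members were lower, a fit with 2 AdCKO mice left. Quantile normalization or an adjusted p of 0.05 made 1 member higher, Pus1, and under quantile normalization Gfm1 was no longer called. Log2 fold changes that turned from negative to positive at equal totals were Polg 0.078, Polg2 0.023, Ssbp1 0.047, Top1mt 0.13, Dguok 0.015, Tk2 0.25, Tfam 0.032, Tfb1m 0.049, Polrmt 0.036, Lrpprc 0.012, Slirp 0.20, Pnpt1 0.16, Gtpbp3 0.20, Trmu 0.15, Fastkd2 0.27, Fastkd5 0.41, Gfm1 0.0070, Mtrf1l 0.035 and Mrrf 0.30. Those that turned under scaling to adipocyte genes were Polg 0.11, Polg2 0.052, Ssbp1 0.077, Top1mt 0.16, Dguok 0.045, Tk2 0.28, Tfam 0.062, Tfb1m 0.079, Polrmt 0.067, Lrpprc 0.043, Slirp 0.23, Pnpt1 0.19, Gtpbp3 0.23, Trmu 0.18, Fastkd2 0.30, Fastkd5 0.44, Mtif2 0.0099, Gfm1 0.037, Mtrf1l 0.064 and Mrrf 0.33. Fastkd3 turned to -0.18 under quantile normalization and Fastkd5 to 0.078 without AdCKO 1, 2 and 4. The Polg/Polg2 log2 ratio difference turned to -0.071 with a pseudocount of 10, to -0.0048 without Control 3 and to -0.026 without AdCKO 2, the lowest of a range up to 0.090 with 1 mouse left out. The cause of these shifts was not tested.

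With any 1 mouse left out, 27 to 29 members were lower and 0 to 1 higher (Pus1, without AdCKO 4), with Trmu and Pnpt1 the calls lost. Calls were also gained, 2 without Control 1, 1 without AdCKO 2 and 1 without AdCKO 4. All genes called lower ran from 2880 to 3066 and higher from 2643 to 2887, Crls1 from -2.36 to -2.19, and the pairs with a changed ratio from 5 to 6. The log2 ratio of library totals ran from -0.50 to -0.47. Pseudocounts, filters, trends and weights kept the direction of every member, and a pseudocount of 10 gave 6 changed pairs. The call of Trmu was lost without a filter and without an intensity trend. A mean of at least 1 over all libraries, a robust trend and array weights each gained 1 call. Replicate numbers shared by the groups did not pair the mice (r of same-numbered deviations from -0.27 to 0.10). With the number as a replicate block, 26 members were lower (Tfb1m, Pnpt1 and Trmu were not called), with 2838 genes lower and 2592 higher among all tested, and 0 pairs passed, since 5 paired differences cannot give an exact p under 0.0625. Unknown depth leaves counting error unmeasured, most of all for low genes such as Polg2 and Fastkd3.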
